A study of Mus musculus with 6 samples.

Results

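Of 10 named amino acid transporter genes, 9 had transcripts among the 11853 mouse genes listed in the expression table, and these 9 are described here. They are Slc3a2, Slc7a5, Slc7a6 and Slc7a11, which form heavy and light chains of paired transporters, the cationic amino acid carrier Slc7a1, the neutral amino acid exchangers Slc1a4 and Slc1a5, the sodium-coupled carrier Slc38a2 and the glycine transporter Slc6a9. The genes were chosen by symbol, with earlier results of these data known, and Slc7a3, a cationic amino acid carrier, was not analysed here. The RNA was that of the C2C12 line, mouse myoblasts that form myotubes when serum is reduced, and the labels call the sampled cells myotubes. In 3 cultures the cells were transfected with NC siRNA (siNC), a control siRNA, and in 3 with CNN3 siRNA (siCNN3), which targets the actin-binding protein calponin 3. Growth in fetal bovine serum followed by horse serum is described for both groups alike, and both come from a single cell line. The study's methods call the sequenced cells differentiating myoblasts and, for analyses of differentiation in general, give a repeated transfection and a fixed harvest time. They do not tie that time or a given CNN3 siRNA to the sequenced cultures, and nothing says that the 3 cultures of a group were started separately, so p-values measure the spread between these samples, which may be technical. The comparison asked which transcripts differed in level after Cnn3 knockdown.

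Amino acid transporters of the plasma membrane set how fast a cell takes up, exchanges and releases amino acids, and growing muscle cells depend on them for protein synthesis and for signalling through mTORC1. The heavy chain encoded by Slc3a2 brings a light chain to the membrane, and the light chain decides which amino acid is carried. Several of these genes are known targets of ATF4, a transcription factor whose translation increases in the integrated stress response, when cells lack amino acids or face other stress.

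Promoter sequences are shown because ATF4 and its partners bind a short composite element known as CARE, and because the same promoters can be searched for the antioxidant response element (ARE). RefSeq windows of 300 bases, from 250 before to 50 after an annotated start (GRCm38.p6), were matched for 7 of the 10 genes, with 11 windows in all. Slc7a5, Slc1a5 and Slc7a3 had no window and were not searched. Searched on both strands, where N is any base, CARE (TGATGNAA) was found for 2 of the 7 genes, or 28.6%, against 4.51% of all genes with a window. A gene with more windows has more chances of a match. By window, 2 of 11, or 18.2%, held CARE, against 3.97% of all windows. Of the list of integrated stress response genes outside transport, 28 had a window, whether or not they were in the expression table. CARE was found for 10 of these 28, or 35.7%. In each sequence below, written 5′ to 3′ on the strand of the gene, capitals mark the motif and the other letters are the 10 bases on each side. Slc7a11 held CARE at 66 and at 47 bases before its start, once in each orientation (chr3:50443662-50443689 and chr3:50443643-50443670, minus strand), and Slc1a4 held it at 4 bases before its start in the opposite orientation (chr11:20332700-20332727, minus strand).
Slc7a11 CARE, same orientation: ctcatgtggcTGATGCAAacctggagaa
Slc7a11 CARE, opposite orientation: cctggagaatTTGCATCAtcatgcagcc
Slc1a4 CARE, opposite orientation: gcctcctgcgTTGCATCAtctccagcct

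ARE (TGACNNNGC) was found for 4 of the 7 genes, or 57.1%, against 14.0% of all genes with a window, and no match overlapped a CARE match. By window, 6 of 11, or 54.5%, held it, against 12.4% of all windows, and 2 overlapping windows of Slc7a6 share 1 match. The genes with ARE were Slc7a1, Slc6a9, Slc7a6 and Slc38a2, of which the first pair had higher values in every siCNN3 library and the second pair did not. The match of lowest coordinate is shown for each. For Slc6a9 the matches lie at 2 alternative annotated starts, and the window that holds the start of Slc6a9-201, the transcript with most of the gene's level, had none. They lie at chr5:148399897-148399925 (Slc7a1, minus strand), chr4:117849294-117849322 (Slc6a9, plus strand), chr8:106168843-106168871 (Slc7a6, plus strand) and chr15:96699737-96699765 (Slc38a2, minus strand).
Slc7a1 ARE, opposite orientation: cggccgcgcgGCGCTGTCAttggtgccct
Slc6a9 ARE, same orientation: tgaaagtaatTGACGCTGCccagcccggc
Slc7a6 ARE, same orientation: ccggtgcgagTGACGTGGCgtgggcgggg
Slc38a2 ARE, same orientation: ccccgcccacTGACGCGGCgccccgccgc
The interferon-stimulated response element, searched as a pair of GAAA blocks with any 2 bases between them, was found for 0 of the 7 genes and for 3.99% of all genes. Slc3a2, which had 1 window, held no match to CARE, ARE or this element. A match in letters is a description and not a binding site, and its absence concerns only these windows.

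Levels are given as FPKM, fragments scaled to the length of the transcript and to the size of the library, summed over the transcripts of a gene. Fold changes in limma are differences of log2(FPKM + 1), which understate the change of genes with low values, and a gene was called when its Benjamini-Hochberg adjusted p over all 11611 tested genes was below 0.05. Before the transporters, the targeted gene was examined. Cnn3 had 62.8, 61.4 and 62.8 FPKM in the siNC libraries and 19.04, 39.2 and 25.6 in the siCNN3 libraries, a mean of 44.8% of siNC. All siCNN3 values were below all siNC values, as the labels say, although the difference was not called (log2 fold change -1.19 ± 0.242 SE, limma adjusted p = 0.0666). The FPKM of a library summed to between 322621 and 355591. Sequencing depth is unknown, so no counting error can be given. Transcripts listed at 0 numbered 2131 in siNC replicate 1 and between 978 and 1333 in the other 5 libraries.

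Of the 9 transporters, 7 had higher values in each siCNN3 library than in any siNC library, compared with 13.8% of all tested genes, and the fold of the means ranged from 2.00 for Slc3a2 to 16.8 for Slc7a11. Of those 7, Slc3a2 passed the adjusted threshold, which is 1 of 9 against 1.73% of all tested genes called higher and 2.07% called in either direction. None of the 9 was called lower (0.336% of all tested genes), and none had all siCNN3 values below all siNC values (9.34%). The other 6, Slc7a11, Slc7a5, Slc6a9, Slc7a1, Slc1a5 and Slc1a4, had adjusted p between 0.0627 and 0.127 in limma. At an unadjusted p below 0.05, 7 of 9 were higher against 9.96% of all tested genes, and 0 were lower against 6.13%. The groups overlapped for Slc7a6 and Slc38a2. All 9 genes passed the filter of a mean of 0.5 FPKM, but Slc7a11 did so only through the siCNN3 libraries, so that a difference was bound to be seen for it. Among the other 8 genes, 6 had groups apart, and their median log2 fold change was 1.02.

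**Figure D1:**
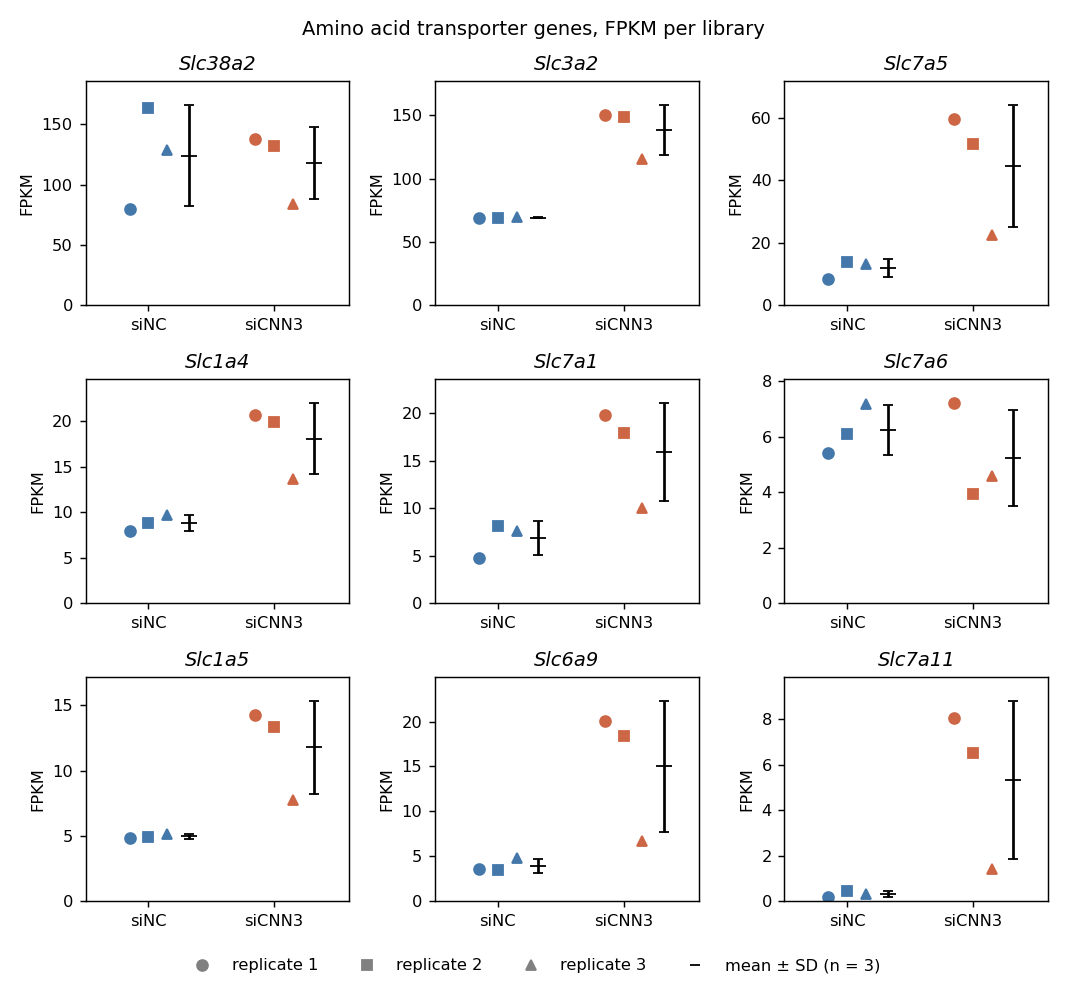
FPKM of the 9 amino acid transporter genes in each library (y axis, linear, from 0 in each panel), with siNC in blue and siCNN3 in orange, replicates 1, 2 and 3 as circle, square and triangle, and the mean ± SD (n = 3) beside them. The siCNN3 points lie above the siNC points in 7 panels, siCNN3 replicate 3 is the lowest orange point in 8 panels, and the groups overlap for Slc38a2 and Slc7a6.

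Slc3a2 encodes the heavy chain, also known as 4F2hc or CD98, which is shared by several light chains. The gene lies at chr19:8706882-8723369 on the minus strand (GRCm38). Its siNC values were 68.9, 69.0 and 69.7 FPKM, and its siCNN3 values were 150.3, 149 and 115 FPKM. The siNC libraries were nearly identical and the lowest siCNN3 library was 1.65-fold above the highest siNC library. Slc3a2 rose 2.00-fold, from 69.2 ± 0.453 to 138 ± 19.9 FPKM (mean ± SD, n = 3 libraries), with a log2 fold change of 0.98 ± 0.129 (SE) and a limma adjusted p of 0.0195. When any single library other than siCNN3 replicate 3 was left out, the gene was no longer called, with limma adjusted p between 0.0507 and 0.110, and without siCNN3 replicate 3 the adjusted p was 0.00318.

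Slc7a5 encodes LAT1, a light chain that exchanges large neutral amino acids such as leucine, and lies at chr8:121881150-121907694 on the minus strand. It had 8.56, 13.9 and 13.4 FPKM in siNC and 59.4, 51.7 and 22.6 FPKM in siCNN3. The groups did not overlap, but the siCNN3 libraries were far from each other, with replicate 3 at 40.6% of the mean of the other two. The means were 12.0 ± 2.95 and 44.5 ± 19.4 FPKM, a ratio of 3.73, and the log2 fold change was 1.73 ± 0.373 (limma adjusted p = 0.0770).

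Slc7a11 encodes xCT, the light chain that takes up cystine in exchange for glutamate and so supplies glutathione synthesis. It spans chr3:49892526-50443614 on the minus strand. In siNC it was near the lower end of the scale, with 0.187, 0.452 and 0.314 FPKM, and in siCNN3 it had 8.06, 6.50 and 1.42 FPKM. Replicate 3 of siCNN3 stood at 19.5% of the mean of the other two, the widest gap among the 7 genes, yet remained 3.14-fold above the highest siNC library. The ratio of the means was 16.8, with a log2 fold change of 2.06 ± 0.477 (limma adjusted p = 0.0903).

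Slc7a6 encodes y+LAT2, a light chain that exchanges cationic for neutral amino acids, and lies at chr8:106168857-106198706 on the plus strand. It had 5.40, 6.09 and 7.19 FPKM in siNC and 7.21, 3.93 and 4.58 FPKM in siCNN3. The highest and the lowest of the 6 values were both from siCNN3. Its log2 fold change was -0.24 with a 95% interval from -0.77 to 0.29 (limma adjusted p = 0.646), so that an increase of the size seen for Slc3a2 lay outside the interval.

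Since these 3 light chains share the heavy chain, their proportions were compared within each library. Slc7a7, another light chain of Slc3a2, is not in this sum, with means of 0.495 FPKM in siNC and 0.260 in siCNN3. The summed light-chain FPKM was 14.1, 20.5 and 20.9 in siNC and 74.7, 62.1 and 28.6 in siCNN3. Slc7a5 made up 64.2% ± 3.77 of this sum in siNC and 80.6% ± 2.29 in siCNN3 (SD, n = 3), and the share of Slc7a11 was 1.68% ± 0.466 and 8.74% ± 3.27. For Slc7a6 the share was 34.1% ± 4.22 in siNC and 10.7% ± 4.94 in siCNN3. None of these shares overlapped between the groups, with an exact two-sided permutation p of 0.1 for each, the smallest that 3 against 3 libraries allow. Slc7a11 passed the filter only through the siCNN3 libraries, and its share carries the same limit. The shares depend on each other because they sum to the whole. The ratio of Slc3a2 to these 3 light chains summed was 4.87, 3.37 and 3.34 in siNC and 2.01, 2.40 and 4.03 in siCNN3, which overlapped (exact permutation p = 0.3).

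**Figure D2:**
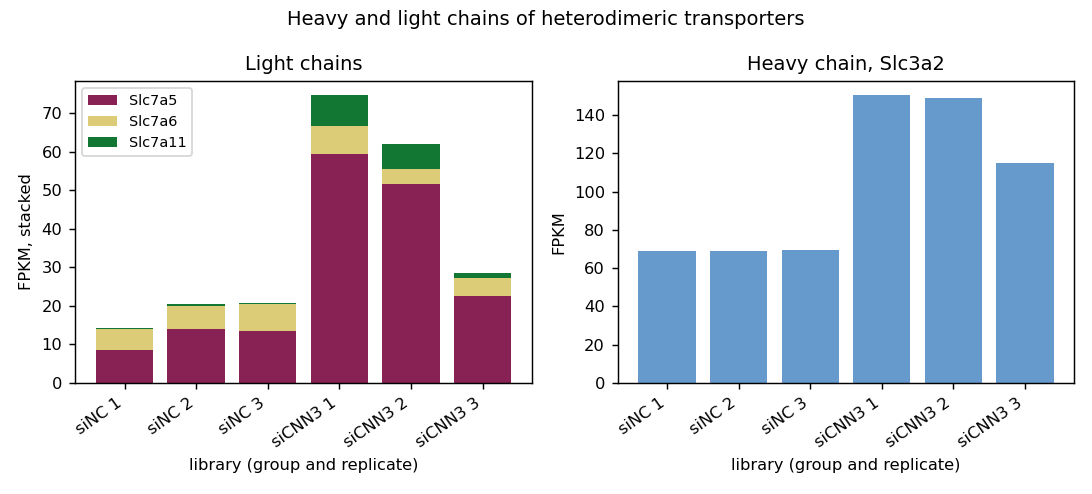
Left, FPKM of the light-chain genes Slc7a5, Slc7a6 and Slc7a11 stacked for each of the 6 libraries (y axis, linear from 0), and right, FPKM of the heavy-chain gene Slc3a2 in the same libraries. The stack is between 14.1 and 20.9 FPKM in siNC and between 28.6 and 74.7 in siCNN3, and Slc7a5 is its main component in every library.

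The cationic amino acid carrier was next. Slc7a1 encodes CAT1, which brings arginine, lysine and ornithine into the cell, and lies at chr5:148327410-148399904 on the minus strand. Its values were 4.80, 8.16 and 7.59 FPKM in siNC and 19.8, 17.9 and 10.1 FPKM in siCNN3. Again siCNN3 replicate 3 was the nearest to siNC, at 1.23-fold the highest siNC library, which is the narrowest gap among the 7 genes with groups apart. The means were 6.85 ± 1.80 and 15.9 ± 5.15 FPKM, a ratio of 2.32, and the log2 fold change was 1.08 ± 0.290 (limma adjusted p = 0.127).

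Slc1a4 encodes ASCT1, an exchanger of alanine, serine, cysteine and threonine (chr11:20302180-20332713, minus strand). It had 7.97, 8.88 and 9.72 FPKM in siNC and 20.7, 20.0 and 13.6 FPKM in siCNN3. Its log2 fold change of 0.94 ± 0.187 came nearest to the threshold among the genes not called (limma adjusted p = 0.0627), and it was called after median-of-ratios scaling of the libraries (adjusted p = 0.0482). Slc1a5 encodes ASCT2, a neutral amino acid exchanger known for glutamine uptake (chr7:16781340-16798274, plus strand). Its siNC libraries lay between 4.81 and 5.18 FPKM, and its siCNN3 libraries had 14.3, 13.4 and 7.72 FPKM. The ratio of its means was 2.37, with a log2 fold change of 1.06 ± 0.230 (limma adjusted p = 0.0783). For both exchangers every siCNN3 value was above every siNC value.

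Slc6a9 encodes GLYT1, which takes up glycine together with sodium and chloride, and lies at chr4:117834506-117875198 on the plus strand. It had 3.60, 3.46 and 4.86 FPKM in siNC and 20.03, 18.3 and 6.69 FPKM in siCNN3. The means differed 3.78-fold and the groups were apart, but siCNN3 replicate 3 was at 34.9% of the mean of the other two (log2 fold change 1.57 ± 0.386, limma adjusted p = 0.106).

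Slc38a2 encodes SNAT2, a sodium-coupled carrier of small neutral amino acids (chr15:96687392-96699730, minus strand). It was the most abundant of the 9 genes by mean in siNC, with 80.0, 163 and 129 FPKM, and had 138, 132 and 83.7 FPKM in siCNN3. All siCNN3 values lay within the range of the siNC values. Its log2 fold change was -0.05 with a 95% interval from -0.76 to 0.66 (limma adjusted p = 0.956), and its sign depended on single libraries, with 0.18 when siNC replicate 2 or siCNN3 replicate 3 was left out.

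**Figure D3:**
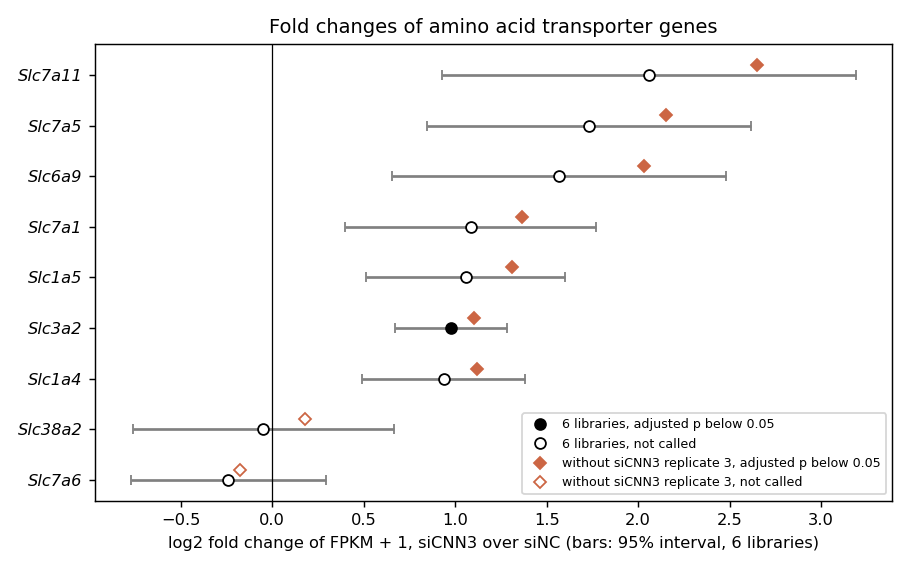
Log2 fold changes of FPKM + 1, siCNN3 over siNC (x axis), for the 9 genes; circles with bars are the limma estimates and 95% intervals from 6 libraries, diamonds are the estimates without siCNN3 replicate 3, and filled symbols mark an adjusted p below 0.05. The filled circle is Slc3a2 alone, while 7 diamonds are filled.

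Libraries of the siCNN3 group differed among themselves in a like way for most of these genes. In 8 of 9 genes siCNN3 replicate 3 was the lowest of its group, compared with 48.4% of all tested genes and 83.6% of the genes called higher. Across the 7 genes with groups apart it stood at 19.5% to 77.0% of the mean of the other two siCNN3 libraries, with a median of 53.5%. Without it, 7 of 9 genes were called higher against 3.84% of all tested genes and 0 lower against 1.39%, with log2 fold changes between 1.10 for Slc3a2 and 2.65 for Slc7a11 and limma adjusted p between 0.00200 and 0.0326. Slc7a11, 1 of the 7, passed the filter only through the siCNN3 libraries, and the next largest log2 fold change was 2.15 for Slc7a5. Leaving out the lowest siCNN3 library of a gene raises its fold change, so the larger values followed from the choice of siCNN3 replicate 3. When any other single library was left out, 0 of 9 were called in limma, while 7 of 9 had an unadjusted p below 0.05 with all libraries. In siNC, replicate 1 was the lowest library in 8 of 9 genes and in 58.8% of all tested genes, and the same library listed the most transcripts at 0. The part of these library differences in the results was not tested.

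Ordered by level per length, the siNC libraries gave Slc38a2 and Slc3a2 well above the others, then Slc7a5, Slc1a4, Slc7a1, Slc7a6, Slc1a5 and Slc6a9, and Slc7a11 last. In that order Slc38a2 and Slc3a2 were apart, as were Slc3a2 and Slc7a5, Slc7a6 and Slc1a5, and Slc6a9 and Slc7a11. The ranges of neighbours from Slc7a5 to Slc7a6 overlapped, as did those of Slc1a5 and Slc6a9. In siCNN3 the order was Slc3a2, Slc38a2, Slc7a5, Slc1a4, Slc7a1, Slc6a9, Slc1a5, Slc7a11 and Slc7a6, in which Slc38a2 and Slc7a5 were apart, as were Slc7a5 and Slc1a4, and the ranges of all other neighbours overlapped. Slc7a6 was in rank 6 of 9 in siNC and in rank 9 in siCNN3. The 9 genes together summed to 184, 278 and 247 FPKM in siNC and to 438, 413 and 266 FPKM in siCNN3, of which Slc38a2 was a large part. Leaving Slc38a2 out, the sums were 104, 115 and 118 FPKM in siNC and 299.8, 280.3 and 182 FPKM in siCNN3.

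The table listed 18 transcripts of the 9 genes, 8 of them from Slc3a2, 3 from Slc6a9 and 1 from each of the others. Slc3a2-201, a protein-coding transcript of 9 exons (chr19:8707617-8713879), carried 92.6% of the gene's siNC level. It had 66.1, 60.9 and 65.2 FPKM in siNC and 129, 135 and 107 FPKM in siCNN3, and rose with a log2 fold change of 0.93 ± 0.118 (limma adjusted p = 0.0428 over all tested transcripts). It was the 1 transcript called among the 14 of these genes tested, against 0.462% of all tested transcripts called higher and 0.0785% called lower. The number called was 0 when any single library other than siCNN3 replicate 3 was left out, and 6 without that library. A second Slc3a2 transcript, Slc3a2-207 with 8 exons, had 0.648, 1.72 and 0.661 FPKM in siNC and 11.0, 7.14 and 2.95 FPKM in siCNN3, which did not overlap (adjusted p = 0.201 in limma). Slc3a2-202 had 1.81, 2.93 and 1.90 FPKM against 6.43, 4.28 and 2.67, which overlapped. Groups also overlapped for Slc3a2-204 and Slc3a2-206, with log2 fold changes of 0.24 and 0.17. Slc6a9-201 held most of the Slc6a9 level, with 3.60, 2.57 and 4.85 FPKM in siNC and 18.0, 14.8 and 6.69 in siCNN3. Slc6a9-209 was listed at 0, 0 and 0.0140 FPKM in the siNC libraries, against 2.01, 3.56 and 0 in siCNN3, and an exact 0 in such a table can be a failed estimate.

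Other amino acid transporters were taken from a list of 52 genes of the plasma membrane and lysosome, of which 22 were listed and 19 tested. In limma 0 of 19 were called in either direction, against 2.07% of all tested genes. At an unadjusted p below 0.05, 1 was higher and 3 were lower, against 9.96% and 6.13%. Their median log2 fold change was 0.02, compared with 0.03 for all tested genes. It was 1.06 for the 9 described genes, and 1.02 without Slc7a11, which passed the filter only through the siCNN3 libraries. Both lists were written with earlier results of these data known. By mean level the leading ones were Slc6a6, a taurine transporter, with 28.3 ± 3.76 FPKM in siNC and 21.0 ± 3.72 in siCNN3, Slc38a10 with 19.7 ± 2.46 and 20.6 ± 2.54, and Slc38a1, a carrier of glutamine and other neutral amino acids, with 11.6 ± 1.97 and 14.0 ± 4.78. Slc38a1 belongs to the same family as Slc38a2, and its groups also overlapped. Slc38a7, a lysosomal glutamine transporter, had 5.81, 7.98 and 5.72 FPKM in siNC and 10.03, 9.33 and 8.07 in siCNN3, a log2 fold change of 0.44 (limma adjusted p = 0.269). It was the 1 gene of the 19 with groups apart and siCNN3 above (13.8% of all tested genes), while 5 of the 19 had groups apart and siCNN3 below (9.34%). Those 5 were Slc7a2, Slc16a10, Slc36a4, Slc38a6 and Slc43a1, chosen here for their values except Slc38a6, and Slc43a1 passed the filter only through the siNC libraries. Slc38a6 had 7.68, 10.1 and 9.005 FPKM in siNC and 6.54, 7.07 and 6.41 in siCNN3, with a log2 fold change of -0.37 (limma adjusted p = 0.288). Slc1a7, chosen after its values were seen, was below the filter, with 0.0548, 0.0290 and 0.109 FPKM in siNC and 0.736, 1.01 and 0.799 in siCNN3.

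**Figure D4:**
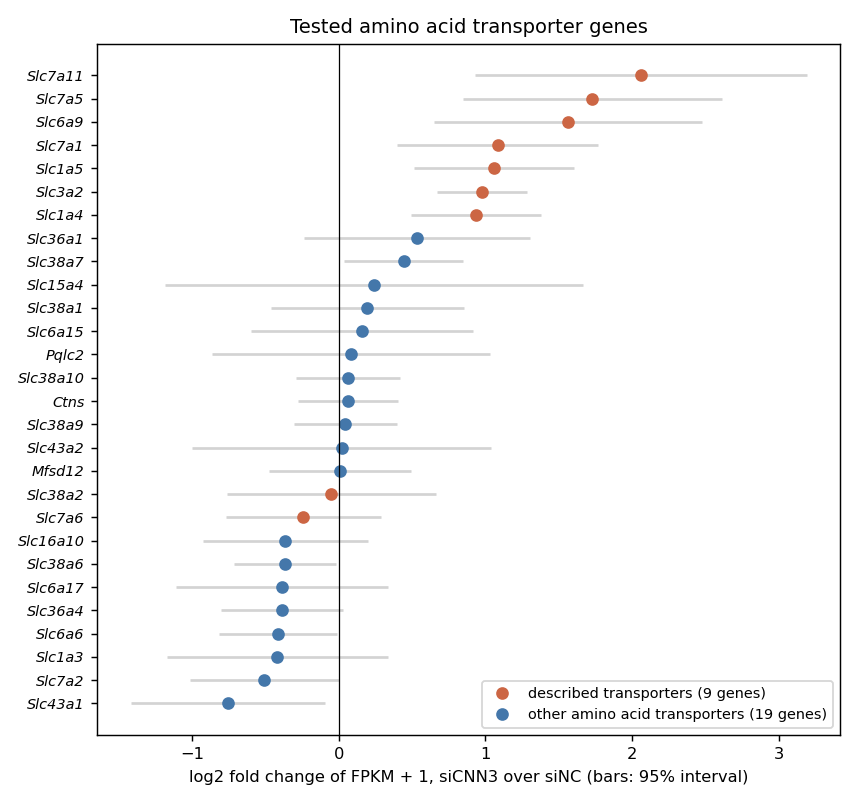
Log2 fold change of FPKM + 1, siCNN3 over siNC (x axis), with 95% limma intervals for the 9 described transporters (orange) and the 19 other tested amino acid transporters (blue), ordered by value. The 7 highest points are the described genes whose groups do not overlap, and Slc38a2 and Slc7a6 lie among the other transporters.

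Genes of the integrated stress response outside transport, which include the regulator ATF4 and enzymes that make amino acids, were mostly higher in siCNN3. Of a list of 30 genes, 28 were tested and 12 rose, 0 fell and 16 did not pass, against 1.73% of all tested genes called higher. The median of their log2 fold changes was 1.49, and in 25 of 28 the siCNN3 values lay above all siNC values, against 13.8% of all tested genes. Fgf21, 1 of the 12, passed the filter only through the siCNN3 libraries, with means of 0.154 FPKM in siNC and 2.98 in siCNN3. This list was written with earlier results of these data known and is not independent evidence of a direction. Atf4 itself rose from 170 ± 29.5 to 348 ± 56.8 FPKM (log2 fold change 1.03, limma adjusted p = 0.0429). Asns, which makes asparagine, rose from 14.3 ± 0.360 to 76.6 ± 21.6 FPKM, and Trib3, a pseudokinase induced by ATF4, rose from 4.03 ± 0.903 to 39.1 ± 16.5 FPKM. Chac1, which degrades glutathione, had 6.29 ± 1.79 and 48.8 ± 7.68 FPKM, and Ddit3, the transcription factor CHOP, had 88.5 ± 28.6 and 462 ± 98.0 FPKM, both called higher. Nupr1, a stress-induced chromatin protein, rose from 42.6 ± 15.0 to 299 ± 84.0 FPKM. Sesn2, a leucine sensor that restrains mTORC1, had 8.06 ± 0.857 and 17.3 ± 4.24 FPKM and was not called (limma adjusted p = 0.0646).

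In 22 of the 28 genes siCNN3 replicate 3 was the lowest of its group, beside 8 of the 9 transporters, the exception there being Slc7a6. Among the other stress response genes, Ddit3 had 438, 379 and 570 FPKM and Nupr1 315, 208 and 374 FPKM in siCNN3 replicates 1, 2 and 3, so that replicate 3 was the highest. The mean log2 deviation from the siNC mean over the 9 transporters was 1.40, 1.21 and 0.44 in the siCNN3 libraries, against 1.72, 1.62 and 1.15 over the 28 genes. Without siCNN3 replicate 3, 25 of the 28 genes were called higher, against 3.84% of all tested genes. The number called was 7 without siNC replicate 1, 8 without siNC replicate 2 and 1 without siNC replicate 3. It was 5 without siCNN3 replicate 1 and 5 without siCNN3 replicate 2, against 12 with all libraries.

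Genes through which amino acids act on mTORC1, such as the Rag GTPases and the GATOR complexes, were counted as a further list. Of 34 genes 32 were tested, and 0 were called in limma, against 2.07% of all tested genes. At an unadjusted p below 0.05, 2 were higher and 3 lower, against 9.96% and 6.13%, which is near the background. Their median log2 fold change was -0.07. Flcn, a regulator of the Rag GTPases chosen after its values were seen, had 4.09, 5.01 and 2.30 FPKM in siNC and 8.496, 7.88 and 8.39 in siCNN3 (limma adjusted p = 0.0934). Sesn1, a relative of Sesn2 also chosen after its values were seen, had 22.7, 27.4 and 28.5 FPKM in siNC and 12.9, 14.0 and 18.9 in siCNN3, and it was called lower only without siCNN3 replicate 3 (limma adjusted p = 0.0280).

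**Figure D5:**
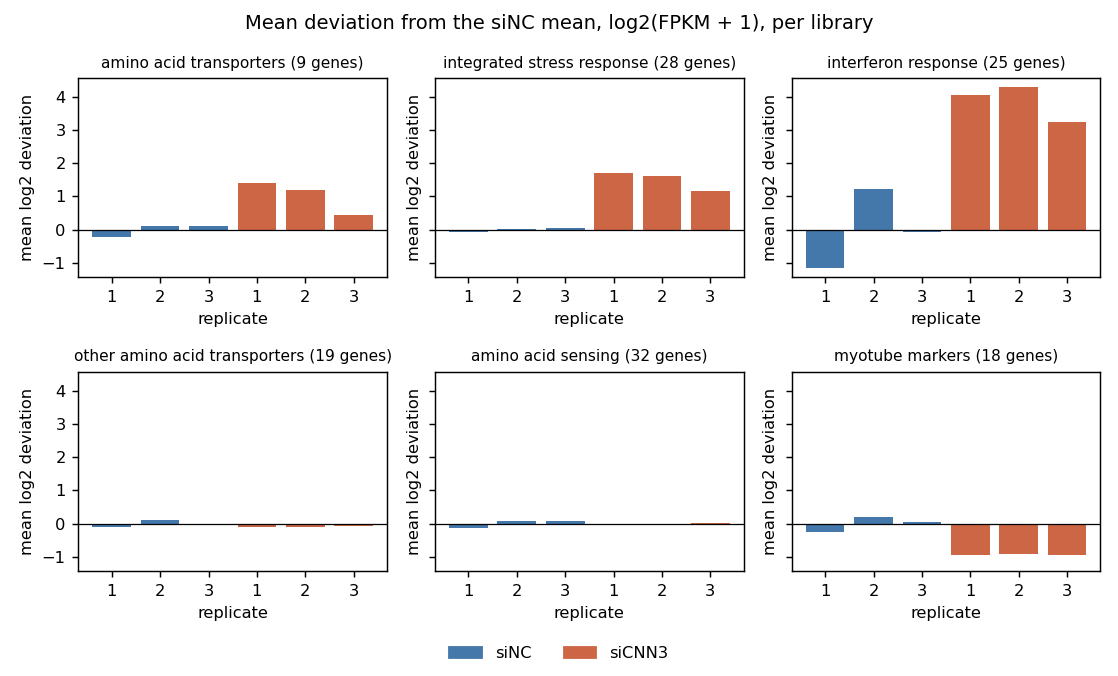
Mean deviation of log2(FPKM + 1) from the siNC mean in each library (y axis, the same scale in all panels), averaged over the tested genes of 6 lists, with siNC bars in blue and siCNN3 bars in orange, replicates 1 to 3 on the x axis. For the amino acid transporters the siCNN3 bars are 1.40, 1.21 and 0.44, while those of the other amino acid transporters stay between -0.11 and -0.07.

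Further lists were counted, beside 1.73% of all tested genes called higher and 0.336% called lower. Of 25 interferon response genes 17 rose and 0 fell in limma, among them Oas2 and Oasl1, which passed the filter only through the siCNN3 libraries. The summed level of the list was 87.2, 752 and 280 FPKM in siNC and 5716, 5564 and 3260 FPKM in siCNN3, lowest again in siCNN3 replicate 3. Within siNC the mean log2 deviations of the transporters were -0.22, 0.10 and 0.12 in replicates 1, 2 and 3, and those of the interferon genes were -1.16, 1.22 and -0.07. Of 23 myoblast and myotube markers 18 were tested, and 7 fell and 0 rose. Myh3 and Tnnc2, among the 7, passed the filter only through the siNC libraries. Myf5, a myoblast regulator, lay the other way, with 3.55, 5.64 and 4.84 FPKM in siNC and 13.0, 11.4 and 5.40 in siCNN3, and was not called with all libraries but was called higher without siCNN3 replicate 3 (log2 fold change 1.23, limma adjusted p = 0.0298). The summed marker level was 229 to 287 FPKM in siNC and 149 to 157 in siCNN3, led by Des, a muscle intermediate filament gene with 117 ± 6.89 and 91.3 ± 10.3 FPKM, Mylpf with 28.2 ± 7.26 and 6.80 ± 0.803 FPKM, and Acta1 with 28.4 ± 4.80 and 5.72 ± 0.615 FPKM. Myog was at 1.23, 3.07 and 2.26 FPKM in siNC, and Ckm, the creatine kinase of mature muscle, was between 0.414 and 0.911 FPKM in siNC and between 0 and 0.0760 in siCNN3. The labelled myotubes thus held several muscle markers, with Ckm below 1 FPKM in all libraries. Of 16 blood and immune cell markers 5 were listed, Cd68 and 4 globin genes led by Hbb-bs, Hba-a1 and Hba-a2, and Hbb-bs and Hbb-bt were called lower. Reads may be split between Hba-a1 and Hba-a2, and between Hbb-bs and Hbb-bt, which are close copies. The 5 listed markers summed to 230, 657 and 235 FPKM in siNC and to between 53.5 and 75.0 in siCNN3. Of 8 adipocyte and endothelial markers 3 were listed, Fabp4, Pparg and Tek, of which Fabp4 was called lower, and they summed to between 11.7 and 15.3 FPKM in siNC and between 6.22 and 7.85 in siCNN3. The part of these gene groups in the transporter result was not tested, and in bulk RNA fewer cells of a type and less RNA per cell cannot be told apart.

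The genes whose pattern over the 6 libraries was most like that of the 9 transporters were sought among 8179 other genes averaging 5 FPKM or more, by the root mean square difference of log2 deviations from the siNC mean. They were Stard5 at 0.0559, Plscr2 at 0.0749, Ncoa7 at 0.1003, Usp25 at 0.106 and Casp1 at 0.107. Stard5, a lipid-binding protein, had 4.43, 5.98 and 5.42 FPKM in siNC and 15.3, 14.3 and 7.72 in siCNN3. Its likeness in single libraries follows from how it was chosen. The points of this comparison share their libraries, and none of the 5 genes was called in limma.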

How the data were processed

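The mRNA-seq values of 3 siNC and 3 siCNN3 libraries of C2C12 cells were used. The authors made FPKM values, deposited for 24023 Ensembl transcripts in 1 table of 6 libraries. The submitters' processing notes name Bowtie 0.12.2 and the builds mm8 and mm10. The program that estimated FPKM and the read numbers are not given in the sources used here, so depth and counting error are unknown, and strand use in counting is not known. Identifiers without version were matched to GENCODE transcripts of GRCm38 (23959 matched, 64 not, which were left out), and FPKM were summed per gene. Genes averaging 0.5 FPKM or more were tested in limma 3.58.1 (R 4.3.3) on log2 values after adding a pseudocount of 1, with a trend of the variance on the mean, p-values adjusted by Benjamini-Hochberg and a threshold of 0.05. Transcripts were fitted likewise. With 3 libraries a group, the smallest exact permutation p is 0.1. Shares were computed in Python 3.11.15 with SciPy 1.17.1.

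The members and gene lists were chosen with earlier results of these data known. The text names all 9 listed transporters, the tested transcripts of Slc3a2 and Slc6a9, and Cnn3. Of the other transporters it names the 3 of highest mean FPKM and the 3 of largest change among those averaging 5 FPKM or more. It also names chosen and leading genes of the stress list, leading markers and the 5 genes most like the transporters. Alternatives were a pseudocount of 0.1, no filter, a filter at 5 FPKM, quantile normalization, scaling by the median of ratios, a replicate block, limma without trend, Student's test of each gene, leaving out transcripts with possible failed estimates, and leaving out each library in turn.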

Additional observations from a re-analysis of the deposited data

How the results depend on the processing

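The 7 transporters with groups apart kept a positive log2 fold change under all 15 alternatives, or 14 for Slc7a11, which the filter at 5 FPKM removed. The number of the 9 transporters called higher was 1 and became 2 after median-of-ratios scaling, 0 with Student's test and between 0 and 7 when 1 library was left out, with 7 only without siCNN3 replicate 3. Transcripts of these genes called higher ranged from 0 to 6, stress response genes from 1 (without siNC replicate 3) to 25 (without siCNN3 replicate 3), all genes higher from 16 to 447 and lower from 4 to 162 with the same libraries left out, sensing genes lower from 0 to 1, and the log2 fold change of Cnn3 from -1.46 to -0.95, called without siCNN3 replicate 2. Student's test called 0 stress response genes and 0 genes in either direction. Genes called lower numbered 39, with 201 called higher, against 63 and 219 after median-of-ratios scaling, and against 93 and 200 with quantile normalization. The log2 fold change of Slc38a2 ranged from -0.33 to 0.18 when 1 library was left out, and was positive without siNC replicate 2 (0.18), without siCNN3 replicate 3 (0.18) and without siNC replicate 3 (0.01).

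Same-numbered libraries did not deviate together (correlations -0.28, 0.31 and -0.02), so the numbers were not taken as pairing. With a replicate block, 0 transporters and 0 of their transcripts were called higher (Slc3a2 log2 fold change 0.98, limma adjusted p = 0.0709), 7 stress response genes, and 62 genes higher and 6 lower. Unknown depth and 3 libraries per group limit all values.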
